A study of Bos grunniens with 36 samples.

Results

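Late lactation, day +240 after calving, was compared with late pregnancy, day -30 before it, in the mammary gland of 4 yaks (Bos grunniens). The study took biopsies of udder tissue from the same 4 females at 9 days around calving and put each on 1 array, which gave 36 arrays, and the 8 arrays used here are the 4 whose titles say day +240 and the 4 whose titles say day -30. No group was treated, and day -30 is the reference for every difference below. The animals are called yaks 1 to 4 as in the titles, and a number stands for 1 animal throughout. Per the labels each sample was parenchyma freed of fat and connective tissue, taken by turns from the left and the right hind udder, a side that the labels do not give array by array, and the animals' age is not given in the sources used here. The array is a cattle design of 60-base probes read with yak RNA, so a probe that pairs poorly with the yak sequence reads low at every day. Levels are log2 values with the 75th percentile of each array at 0, a log2 difference of 1 is a doubling, and a level says nothing across genes because each comes from another probe.

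The mammary gland of a late-pregnant ruminant is still building its alveoli: progesterone, oestrogen, prolactin and growth hormone drive the division of epithelial cells, while full milk secretion waits for calving. In lactation the alveolar cells turn to secretion, taking up glucose, amino acids, acetate and fatty acids and exporting caseins, whey proteins, lactose and fat globules. Over a long lactation cell number and secretion per cell decline slowly, and once milk is no longer removed the gland involutes through lysosomal and apoptotic cell loss and a rise in defence proteins. Day +240 is the latest day of the series.

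The identity of the arrays bears on every value. Each column of the table used here equals 1 scanner file, less a constant, but in each of the 36 cases that file belongs, in its own label, to a different sample, and the files' own labels give the same day as the column for only 2 of these 8, both from yak 4. By the files' labels, 3 of the 4 arrays used as day -30 would be day +240 and 3 of the 4 used as day +240 would be day +180. The animal number differed in all 36 cases. Columns titled yaks 1, 2, 3 and 4 equal files labelled yaks 2, 3, 4 and 1, and yak numbers here are those of the columns. The days of the table's columns were used throughout. With the days of the scanner files no gene passed limma's test in either direction, 280 genes had an unadjusted p under 0.05, and which record is right cannot be told from the files. In the table's record the 4 arrays of a day share 1 slide, so that day and slide cannot be told apart. Every day +240 array was dimmer than every day -30 array, with a 75th percentile of 1270 to 3882 intensity units against 4844 to 5750.5. At day +240 72.0% to 80.8% of probes were well above background, against 84.5% to 89.3% at day -30. The 3882 units were those of yak 1, while yaks 2, 3 and 4 had 1535, 1270 and 1421.5 at day +240. Brightness and the split of yak 1 from the other animals thus go together, and their link was not tested. Yak 1 at day +240 stood apart from the other arrays of its day. Over genes, which are not independent replicates, its mean Pearson r was 0.900 with those 3 arrays and 0.940 with the day -30 arrays, where yak 2 had 0.937 and 0.906. Yak 3 also had 0.937 and 0.906, but yak 4 at day +240 was no closer to its own day, with 0.935 for each.

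Of 20108 genes tested, 1380 (6.86%) were higher and 1423 (7.08%) were lower at day +240 than at day -30 by limma at an adjusted p under 0.05 (Benjamini-Hochberg over all genes tested). The difference was positive in 49.4% and negative in 50.6% of all genes. Below, a value after ± is the standard error of the fitted log2 difference, and "rose", "fell", "higher" or "lower" in a count means past that threshold. The named falls included genes of mitosis and DNA replication, the Wnt amplifier RSPO1, the ciliary gene DNALI1 and the growth factor antagonist CHRDL2. The named rises held milk proteins, fat and sterol enzymes, the chaperones of the secretory route, neutrophil-attracting chemokines and lysosomal proteases. A log2 difference of at least 1 in size was reached by 658 of the higher and 1013 of the lower genes. The 4 values of one day lay wholly above or below those of the other for 963 of the higher and 1046 of the lower genes, and over all genes tested such a gap occurred in 7.56% upward and 7.59% downward.

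**Figure D1:**
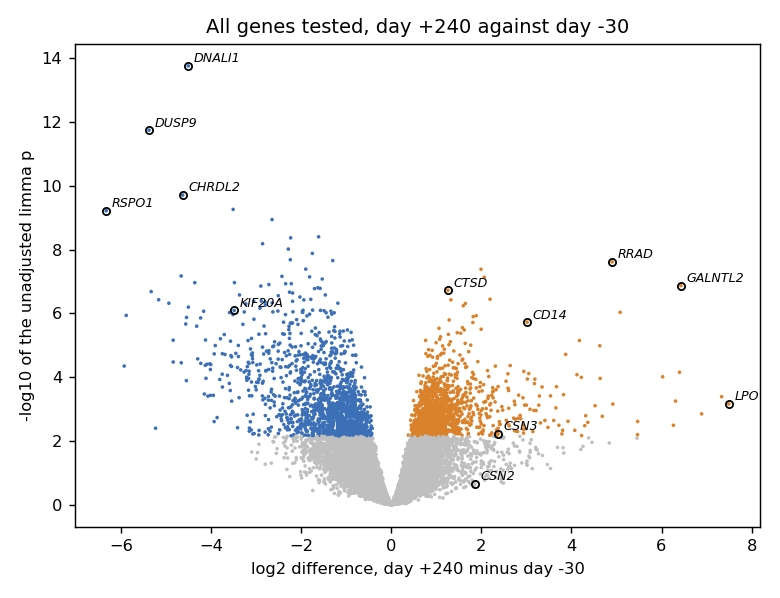
Each point is 1 of the 20108 genes tested, with the log2 difference of day +240 minus day -30 on the x axis and minus log10 of the unadjusted limma p on the y axis; orange genes were called higher, blue genes lower and grey genes did not pass. The falls of DNALI1, DUSP9, CHRDL2 and RSPO1 have the smallest p-values of the genes marked, CD14, CTSD, RRAD and GALNTL2 lead the marked rises, and CSN2 lies among the genes that did not pass.

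The animals did not contribute alike to these calls. Over the 1380 higher genes the median difference was 0.49 in yak 1, 1.18 in yak 2, 1.24 in yak 3 and 0.97 in yak 4, and yak 1 had the smallest rise of the 4 animals for 939 of them. Over the lower genes the medians were -0.96, -1.76, -1.47 and -0.99 in yaks 1 to 4. Without the day +240 array of yak 1 there were 2460 higher (12.2%) and 2198 lower genes (10.9%), an alternative chosen after seeing the data. With all arrays of yak 2 left out, 70 genes were higher and 267 lower, and without yak 3 these were 36 and 203. Without the day +240 array of yak 4 the counts were 1264 (6.29%) and 1460 (7.26%). With array brightness (its 75th percentile) as a covariate, here called the brightness covariate, 346 genes were higher and 1489 lower. Fitting the 8 arrays alone, with animal as a block, left 3 higher and 39 lower. Of the 144 named genes that passed, 22 passed in the same direction whichever animal was left out at all days. They are ATP2B2, CD14, CFD, CTSB, CTSD, DUSP1, GALNTL2 and RRAD among the higher, and CDC6, CHRDL2, DNALI1, DUSP9, GALNT13, GINS2, GPC4, GREB1, KIF20A, MIS18A, ORC1, RSPO1, SPAG5 and UHRF1 among the lower. The other named calls below ended without at least one animal. Of those 22, all but CTSB also passed with quantile normalization, with normexp, with array brightness as a covariate and without the day +240 array of yak 1 or of yak 4. The counts of the lists below depended on the arrays, the covariate and the scaling as well. They are given for the fits that leave out one of those arrays, with the brightness covariate, with quantile normalization and with normexp wherever such a fit moved the count by over 1.5 times. Over all genes, quantile normalization gave 1086 higher and 1087 lower, and normexp 1024 and 1147. The all-gene counts moved between fits too, so each list count is to be read beside that of its own fit. In the main fit the all-gene shares were 6.86% higher and 7.08% lower.

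**Figure D2:**
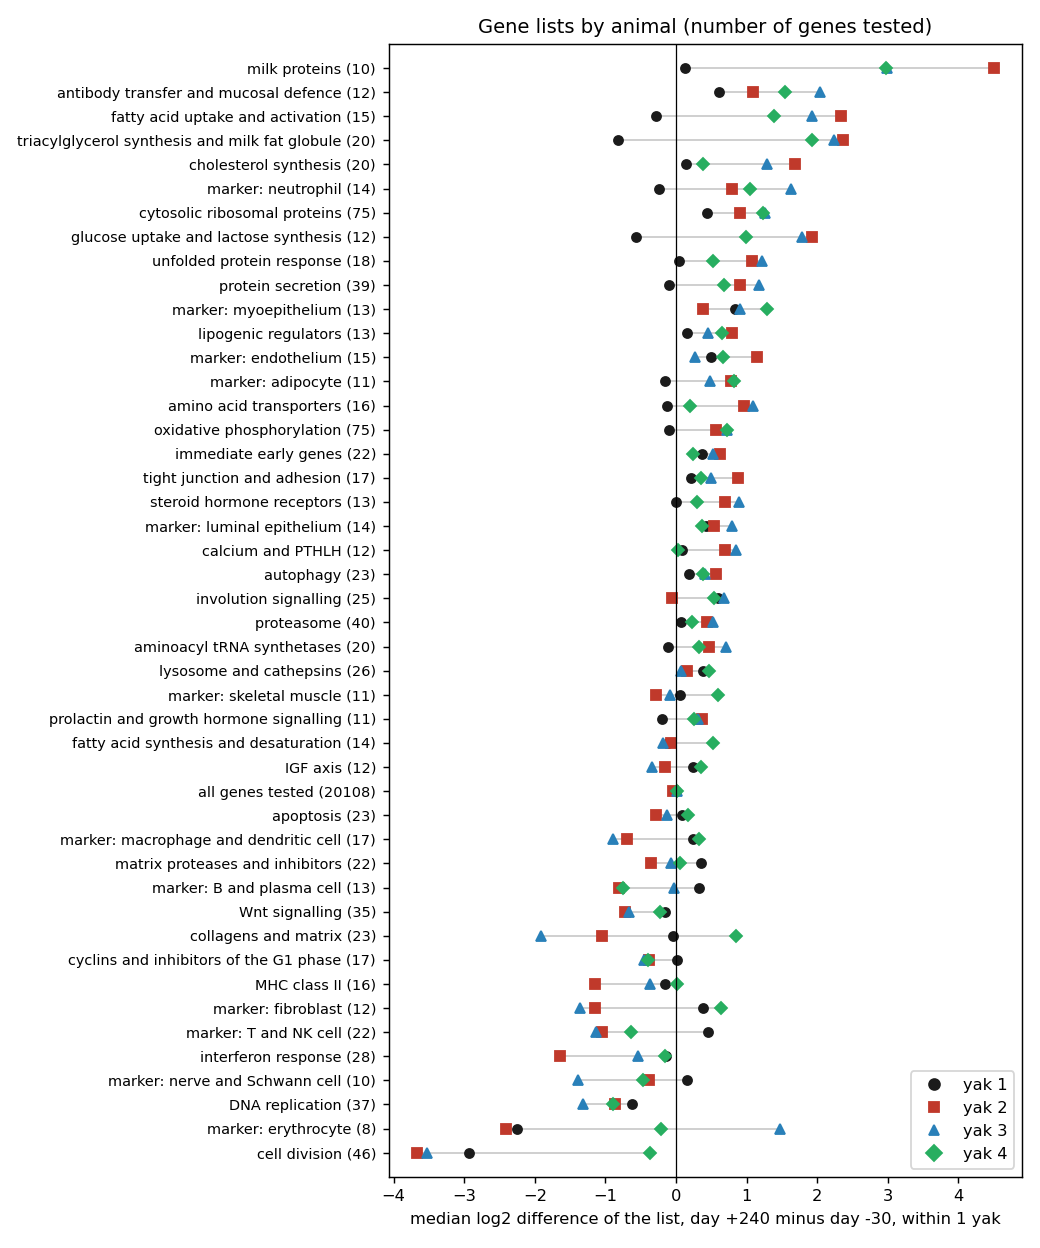
Each row is a gene list with its number of genes tested, and the x axis gives the median log2 difference, day +240 minus day -30, of that list within each yak (black circle 1, red square 2, blue triangle 3, green diamond 4). Lists of very few genes are left out. Yak 1 lies near or below 0 for the milk protein, fatty acid uptake, triacylglycerol and glucose lists where the other yaks lie above, and yak 4 stands apart for cell division at -0.37.

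The median difference of the milk protein list was well above 0 in yaks 2, 3 and 4 and near 0 in yak 1. Single genes of yak 1 moved both ways, as the values below show. Of 10 such genes 4 rose, LPO, CRISP3, CSN1S2 and CSN3, and the median difference of the 10 was 2.46 against -0.01 over all genes. LPO, which encodes the antibacterial milk enzyme lactoperoxidase, read -5.49, -5.36, -4.65 and -6.31 in yaks 1 to 4 at day -30, and -4.11, 4.32, 4.77 and 3.20 at day +240. All day +240 values were above all day -30 values, with yak 1 far below the other 3, and the difference was 7.50 ± 1.98 (adjusted p = 0.014). CRISP3, a cysteine-rich secreted protein of exocrine glands, was also without overlap, though narrowly, at -4.92, -4.86, -5.67 and -2.09 in yaks 1 to 4 at day -30, and -1.91, 4.54, 4.32 and 0.75 at day +240 (difference 6.31 ± 1.64, adjusted p = 0.0123). CSN3, which encodes kappa-casein, the coat of the casein micelle, read 5.45, 5.64, 5.93 and 4.92 in yaks 1 to 4 at day -30, and 6.33, 8.77, 8.44 and 7.87 at day +240. Its groups did not overlap either, and the difference was 2.37 ± 0.80 (adjusted p = 0.0455).

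The alpha-s2-casein gene CSN1S2 read 2.91, 1.17, 4.14 and 2.58 in yaks 1 to 4 at day -30, and 3.17, 8.47, 8.55 and 7.50 at day +240. The value of yak 1 at day +240 lay within the range of day -30, and the difference of 4.23 ± 1.45 (adjusted p = 0.0491) rested on the other 3 animals. The remaining major milk proteins did not pass. CSN1S1, for alpha-s1-casein, differed by 2.48 ± 1.39 (adjusted p = 0.225). CSN2, for beta-casein, differed by 1.86 ± 1.48 (adjusted p = 0.412), and its level in yak 1 was 5.64 at day -30 and 4.51 at day +240. In LALBA, the alpha-lactalbumin gene whose protein makes lactose synthase, yaks 2 to 4 read 8.17, 7.69 and 6.97 at day +240 against 1.38 in yak 1 (difference 3.53 ± 1.90, adjusted p = 0.204). PAEP, for beta-lactoglobulin, differed by 1.71 ± 1.09 (adjusted p = 0.293). LTF, the iron-binding lactoferrin that accumulates when milk stasis sets in, read 5.29, 3.01, 6.83 and 3.85 at day +240 and 2.33, 3.26, 3.82 and 3.12 at day -30 (difference 1.61 ± 0.84, adjusted p = 0.19). Yaks 1 and 3 were the highest at day +240, and yak 2 was below its own day -30 value.

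The median of the milk protein list was 0.12, 4.50, 2.99 and 2.97 in yaks 1 to 4. Days +120 and +180 enter the spread of every test here, and without the yak 4 array of each, an exclusion made with the data in view, 9 of the 10 genes rose. In the milk protein list 2 rose without yak 4 at day +240. Of the milk protein genes none passed by limma with the brightness covariate (1 higher and 1 lower at an unadjusted p under 0.05; list median -0.94), and 2 rose after quantile normalization and with normexp. With the brightness covariate the differences of CSN1S2 and CSN3 were -0.36 and -0.26. Whether brightness has a part in these values was not tested.

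**Figure D3:**
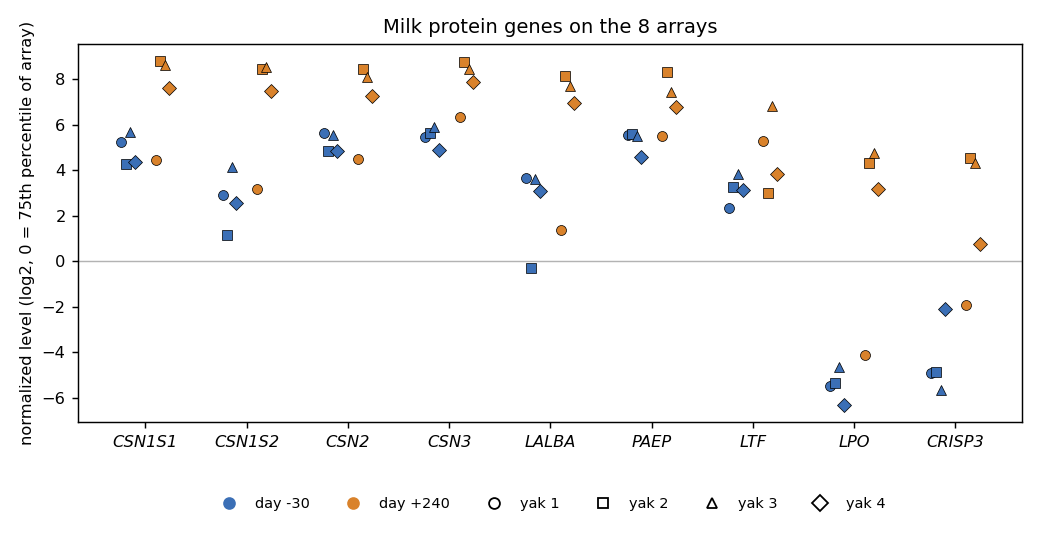
The normalized log2 level of 9 milk protein genes is plotted for each of the 8 arrays, blue for day -30 and orange for day +240, with the marker giving the yak. In CSN1S1, CSN1S2, CSN2, LALBA and PAEP the orange circle of yak 1 sits at or below the highest blue points while yaks 2, 3 and 4 sit above all of them.

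Few genes that supply fatty acids or assemble milk fat passed, and their values split yak 1 from the other animals. In fatty acid uptake and activation 2 of 15 genes rose, the scavenger receptor and fatty acid carrier CD36 and the acetate-activating enzyme ACSS1. CD36 read 2.26, 2.75, 2.72 and 2.81 in yaks 1 to 4 at day -30, and 2.50, 5.55, 5.74 and 4.73 at day +240 (difference 1.99 ± 0.66, adjusted p = 0.043), and ACSS1 differed by 1.68 ± 0.42 (adjusted p = 0.0105). Lipoprotein lipase, LPL, which frees fatty acids from blood lipoproteins, did not pass at 3.07 ± 1.38 (adjusted p = 0.127): it read -1.34, 4.45, 4.25 and 4.31 in yaks 1 to 4 at day +240, against -0.18, -0.19, -0.19 and -0.05 at day -30. FABP3, the cytosolic fatty acid binding protein of milk cells, read -0.39 in yak 1 and 6.41, 6.59 and 6.03 in the others at day +240 (difference 2.08 ± 1.35, adjusted p = 0.302). In the fatty acid uptake list 8 rose without yak 1 at day +240, and 1 rose without yak 4 at day +240. Of the fatty acid uptake genes 1 fell with the brightness covariate (limma: none rose, 0 higher at an unadjusted p under 0.05; list median -0.16), and 1 rose after quantile normalization and with normexp.

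In triacylglycerol synthesis and fat globule secretion 2 of 20 genes rose and 1 fell. These were 10.0% and 5.0% of the list, beside 6.86% higher and 7.08% lower over all genes tested. The acyltransferases AGPAT6, which starts glycerolipid assembly, and AGPAT1 rose by 2.21 ± 0.61 (adjusted p = 0.018) and 1.52 ± 0.51 (adjusted p = 0.0452), and MOGAT1, a monoacylglycerol acyltransferase, fell by 1.39 ± 0.38 (adjusted p = 0.0163). XDH and BTN1A1, the enzyme and the membrane protein that wrap the fat globule, differed by 1.54 ± 0.65 (adjusted p = 0.106) and 1.15 ± 2.22 (adjusted p = 0.761) and did not pass. BTN1A1 had the widest split, -2.07 in yak 1 at day +240 against 6.10, 6.06 and 5.15 in yaks 2 to 4. The list's median was -0.82, 2.36, 2.24 and 1.93 in yaks 1 to 4. In the triacylglycerol list 8 rose and 1 fell without yak 1 at day +240, and 1 rose and 1 fell without yak 4 at day +240. Of the triacylglycerol genes 2 fell with the brightness covariate (limma: none rose, 0 higher at an unadjusted p under 0.05; list median -0.55), and 1 rose and 1 fell after quantile normalization and with normexp.

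Of 14 genes of fatty acid synthesis and desaturation 1 passed, and it fell: ACLY, which makes acetyl-CoA from citrate, a route ruminants use little, dropped by 0.77 ± 0.24 (adjusted p = 0.0338). That is 7.14% of the list, beside 7.08% lower over all genes tested. FASN, the fatty acid synthase, differed by 0.82 ± 0.70 (adjusted p = 0.443), ACACA, the acetyl-CoA carboxylase, by 1.28 ± 0.74 (adjusted p = 0.24), and SCD, the delta-9 desaturase, by 1.99 ± 0.99 (adjusted p = 0.168). Each was lower at day +240 than at day -30 in yak 1 and higher in yaks 2 to 4. In the fatty acid synthesis list 4 rose and 3 fell without yak 1 at day +240, and none passed by limma without yak 4 at day +240 (1 higher and 2 lower at an unadjusted p under 0.05). Among 13 regulators of lipid synthesis 4 rose: SREBF2, the sterol-sensing transcription factor (0.78 ± 0.26), INSIG2, which retains it in the endoplasmic reticulum (0.77 ± 0.23), NR1H3, the oxysterol receptor LXR alpha (0.69 ± 0.17), and PPARA, a fatty acid receptor (1.01 ± 0.25). In the lipid regulator list 2 rose without yak 4 at day +240, and 1 rose with the brightness covariate and with normexp.

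Cholesterol synthesis had 5 rises among 20 genes, with a list median of 0.97. Among them were TM7SF2, a sterol reductase, PMVK, of the mevalonate pathway, SC5DL, a sterol desaturase (1.51 ± 0.51), and FDFT1, squalene synthase (0.90 ± 0.30). TM7SF2 read -3.79, -4.29, -3.60 and -4.71 in yaks 1 to 4 at day -30, and -3.06, -0.74, 0.09 and -2.32 at day +240. Its groups did not overlap, yaks 2 and 3 were the highest, and the difference was 2.59 ± 0.62 (adjusted p = 0.00749). PMVK differed by 2.02 ± 0.68 (adjusted p = 0.0462). In the cholesterol list 9 rose and 1 fell without yak 1 at day +240, and 3 rose without yak 4 at day +240. Of the cholesterol genes 2 fell with the brightness covariate (limma: none rose, 0 higher at an unadjusted p under 0.05; list median -0.34), and 2 rose and 1 fell after quantile normalization and with normexp. Without the covariate the medians of the uptake and triacylglycerol lists were 1.31 and 1.11. With the covariate the differences of CD36, AGPAT1, SC5DL and SREBF2 were below 0.

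Of 12 genes for glucose uptake and lactose synthesis 1 rose (8.33%, beside 6.86% of all genes tested). It was SLC2A1, the glucose transporter GLUT1, which read 0.99, 0.44, 0.87 and -0.05 in yaks 1 to 4 at day -30, and 0.89, 3.19, 3.12 and 2.09 at day +240. Yak 1 was again within the day -30 range, and the difference was 1.76 ± 0.52 (adjusted p = 0.0256). The list median was 0.93. In the glucose and lactose list 6 rose without yak 1 at day +240, and none passed by limma with the brightness covariate (2 higher and 2 lower at an unadjusted p under 0.05; list median -0.16). Of 16 amino acid transporters 2 rose, SLC38A2, which carries small neutral amino acids (1.24 ± 0.34, adjusted p = 0.017), and SLC1A4, a carrier of alanine and serine (1.49 ± 0.49, adjusted p = 0.0414). In the amino acid transporter list 6 rose and 1 fell without yak 1 at day +240, and 2 rose and 1 fell without yak 4 at day +240. Of the amino acid transporter genes 1 rose and 1 fell with the brightness covariate, and 1 rose with normexp. None of 20 aminoacyl tRNA synthetase genes passed limma's test, 4 had an unadjusted p under 0.05, and an ordinary linear model also called 0. In the tRNA synthetase list 1 rose without yak 1 at day +240. Of the tRNA synthetase genes 2 fell with the brightness covariate (list median -0.41), and 1 fell after quantile normalization and with normexp.

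The secretory route moved upward in part. Of 18 genes of the unfolded protein response, which matches chaperones to protein load in the endoplasmic reticulum, 6 rose and all 18 had a positive difference. They were ATF4, the translation-controlled stress factor (1.45 ± 0.43, adjusted p = 0.0265), its target TRIB3, the co-chaperones DNAJC3 (1.57 ± 0.45) and DNAJB9 (0.94 ± 0.27), the chaperone calreticulin, CALR (0.94 ± 0.30), and the sensor kinase EIF2AK3 (0.75). After quantile normalization CALR was at -0.051, below 0. TRIB3 had the widest difference of them, from -4.71, -5.48, -4.42 and -4.03 to -4.22, -0.87, -0.95 and -2.17, a difference of 2.61 ± 0.71 (adjusted p = 0.0168). Of 39 genes of protein targeting and vesicle transport 7 rose, among them SRP54 of the signal recognition particle (1.50 ± 0.37), its receptor SRPR (1.23 ± 0.41), the signal peptidase subunit SEC11C (1.46 ± 0.44), the translocon-associated SSR2 (1.00 ± 0.28) and the retrieval receptor KDELR2 (0.99 ± 0.31). SEC11C showed the split between animals, at 1.68 in yak 1 and 3.71, 4.03 and 3.06 in yaks 2 to 4 at day +240. Without yak 1 at day +240 the count of the unfolded protein response was 9 of 18. In the unfolded protein response list none passed by limma with the brightness covariate (0 higher and 1 lower at an unadjusted p under 0.05), and 3 rose after quantile normalization and with normexp. In the secretion list 26 of 39 rose without yak 1 at day +240, where 12.2% of all genes did. Of the secretion genes none passed by limma with the brightness covariate (0 higher and 3 lower at an unadjusted p under 0.05; list median -0.16), and 2 rose after quantile normalization and with normexp. With the brightness covariate the differences of ATF4, SEC11C and SRPR were -0.02, 0.00 and -0.16.

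Cytosolic ribosomal protein genes were 47 of 75 higher on the deposited scale, with a median of 0.95. Their direction depends on the scaling. In the ribosomal protein list none passed by limma with the brightness covariate (0 higher and 4 lower at an unadjusted p under 0.05), 1 rose and 8 fell after quantile normalization (list median -0.16), and 9 fell with normexp (limma: none rose, 1 higher at an unadjusted p under 0.05; list median -0.13). On the deposited scale the 2 days did not overlap for 67 of the 75, and the median difference was 0.43, 0.90, 1.27 and 1.24 in yaks 1 to 4. RPLP0, of the ribosomal stalk, differed by 1.33 ± 0.39 (adjusted p = 0.0243) there and by 0.06 with quantile normalization. Oxidative phosphorylation turned as well, with 8 of 75 genes higher and a median of 0.47 on the deposited scale against -0.08 after quantile normalization. In the oxidative phosphorylation list 26 rose without yak 1 at day +240. Of the oxidative phosphorylation genes 5 fell with the brightness covariate (limma: none rose, 0 higher at an unadjusted p under 0.05; list median -0.20), 3 fell after quantile normalization (limma: none rose, 3 higher at an unadjusted p under 0.05), and 3 fell with normexp (limma: none rose, 1 higher at an unadjusted p under 0.05). The proteasome had 5 higher and 2 lower of 40 genes on the deposited scale, with a median that also turned, from 0.33 to -0.07. In the proteasome list 12 rose and 2 fell without yak 1 at day +240. Of the proteasome genes 1 fell with the brightness covariate (limma: none rose, 0 higher at an unadjusted p under 0.05), 6 fell after quantile normalization (limma: none rose, 0 higher at an unadjusted p under 0.05), and 7 fell with normexp (limma: none rose, 1 higher at an unadjusted p under 0.05; list median -0.12). The 2 lower genes were PSMB9, the interferon-induced immunoproteasome subunit (-0.84 ± 0.24, adjusted p = 0.0217), and the assembly chaperone PSMD9 (-0.79 ± 0.16, adjusted p = 0.00174), and both were lower after quantile normalization too. In the main fit the falls were 5.0% of the proteasome list, below 7.08% lower over all genes tested, and the rises were 12.5%, beside 6.86% higher.

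**Figure D4:**
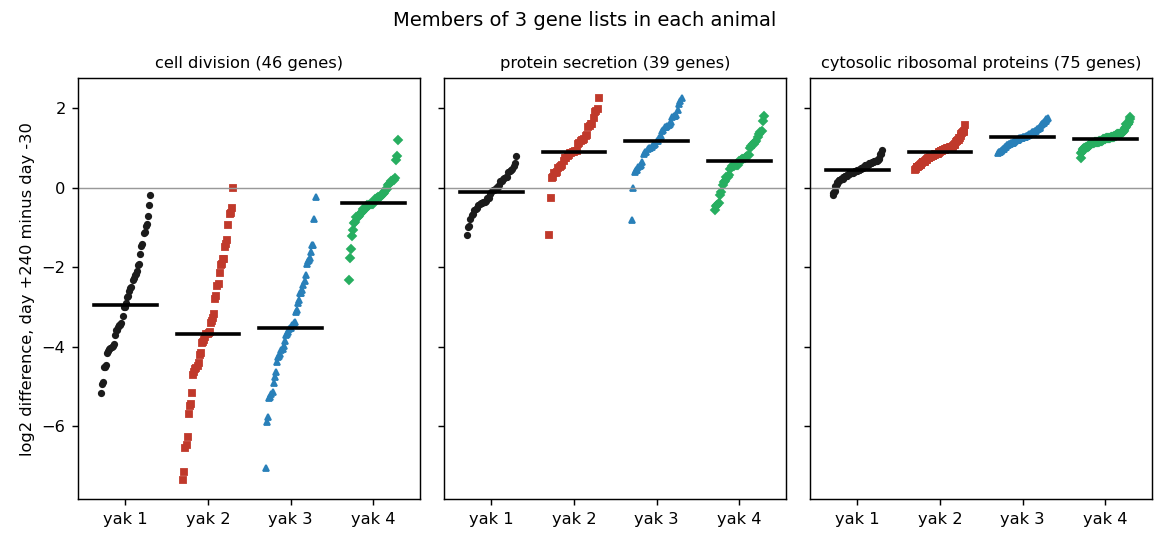
Each point is 1 gene of the cell division, protein secretion or cytosolic ribosomal protein list, sorted within each yak, with the log2 difference of day +240 minus day -30 on the y axis and the black bar at the median. Cell division medians are -2.94, -3.66, -3.52 and -0.37 in yaks 1 to 4, secretion medians -0.10, 0.90, 1.17 and 0.67, and ribosomal medians 0.43, 0.90, 1.27 and 1.24 on the deposited scale.

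Several of the largest rises lay outside the milk and fat lists. GALNTL2, which encodes a transferase of mucin-type O-glycosylation, read -4.29, -7.06, -4.63 and -3.56 in yaks 1 to 4 at day -30, and -0.09, 2.95, 2.79 and 0.53 at day +240. The groups were apart in all 4 animals, at 6.43 ± 0.94 (adjusted p = 0.0001), and the call held without any one animal (highest adjusted p 0.0128). RRAD, a Ras-related GTPase that damps calcium channels, read -1.61, -2.93, -1.65 and -2.36 in yaks 1 to 4 at day -30, and 1.88, 2.86, 4.01 and 2.31 at day +240. It was one of 2 named rises that also passed on the 8 arrays alone, with 4.90 ± 0.66 (adjusted p = 3.50e-05) in the fit over all arrays. PCP4, a calmodulin-binding peptide, differed by 6.40 ± 1.39 (adjusted p = 0.00371).

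The neutrophil attractants CXCL2 and CXCL3 rose together. CXCL3 read -2.47, -3.04, -2.82 and -2.77 in yaks 1 to 4 at day -30, and -1.78, 2.94, 2.95 and 1.50 at day +240, a difference of 4.18 ± 0.77 (adjusted p = 0.000986). CXCL2 differed by 4.22 ± 0.94 (adjusted p = 0.00473), with -3.14 in yak 1 and 2.55, 1.81 and 0.83 in the other 3 at day +240. Yak 1 lay just above the day -30 values in both genes. ALOX15, the 15-lipoxygenase of arachidonic and linoleic acid, rose by 4.92 ± 1.30 (adjusted p = 0.0141), and its relative ALOX15B fell by 3.87 ± 1.13 (adjusted p = 0.024). CA4, a membrane carbonic anhydrase, rose by 4.64 ± 1.04 (adjusted p = 0.00488), CDH16, a cadherin known from kidney epithelium, by 3.92 ± 1.18 (adjusted p = 0.0277), and the adhesion receptor gene GPR110 by 4.52 ± 1.21 (adjusted p = 0.015). FAM159B, SPINK4, a secreted trypsin inhibitor, and TMOD4, an actin-capping tropomodulin, were at -5.69, -3.39 and -2.46 in yak 1 and at 0.97, 3.38 and 2.80 in yak 2 at day +240. Their differences were 4.68 ± 1.36 (adjusted p = 0.0228), 4.36 ± 1.33 (adjusted p = 0.0289) and 4.32 ± 1.25 (adjusted p = 0.0223). PHYHIPL was not well above background on any day -30 array and was on all 4 of day +240, at least 56.8-fold higher (adjusted p = 0.0208). A fold so bounded uses, for each dim array, the higher of that lowest signal and the probe's own value.

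Calcium handling gave 2 rises among 12 genes. ATP2B2, the plasma membrane pump that moves calcium into milk, read -7.46, -6.14, -6.81 and -5.22 in yaks 1 to 4 at day -30, and -4.00, -0.83, -0.81 and -1.47 at day +240. At day -30 only 2 of its 4 values were well above background, no values overlapped, and the difference of 4.63 ± 0.88 (adjusted p = 0.00121) also passed on the 8 arrays alone. PTHLH, for the parathyroid hormone-related protein by which the gland draws calcium from bone, read -0.24, -0.95, -0.62 and -1.33 in yaks 1 to 4 at day -30, and -0.28, 5.17, 5.22 and 3.24 at day +240. Yak 1 stayed at the day -30 level, and the difference was 4.12 ± 0.91 (adjusted p = 0.00417), or 5.31 ± 0.82 without that array. In the calcium list 4 rose without yak 1 at day +240, and 1 rose with the brightness covariate.

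Cell division genes fell almost throughout. Of 46 genes of mitosis tested, out of 52 listed, 39 were lower at day +240, all 46 differences were negative, and the median was -2.69 against -0.01 over all genes. CCNB1, the mitotic cyclin B1, read -0.33, -0.18, -0.34 and -0.95 in yaks 1 to 4 at day -30, and -4.49, -7.32, -5.26 and -1.20 at day +240. Yaks 1 to 3 dropped by several log2 units and yak 4 stayed just under its own day -30 value, for a difference of -4.12 ± 0.93 (adjusted p = 0.00488). KIF20A, a kinesin of cytokinesis, read -1.47, -1.78, -1.74 and -2.58 in yaks 1 to 4 at day -30, and -5.93, -5.94, -6.37 and -3.29 at day +240, and it passed without any one animal (-3.49 ± 0.56, adjusted p = 0.000261). The kinetochore protein gene CENPF (-3.93 ± 0.78, adjusted p = 0.00171), the spindle gene SPAG5 (-3.49 ± 0.50, adjusted p = 9.48e-05), the kinase gene BUB1 of the spindle checkpoint (-4.02 ± 0.86, adjusted p = 0.00328) and ASPM, of the spindle pole (-4.10 ± 0.85, adjusted p = 0.0026), moved the same way, again least in yak 4. Cyclin A2, CCNA2, and the spindle factor DLGAP5 fell by 4.23 ± 0.88 and 4.85 ± 0.89, and CDCA3, which triggers mitotic entry, by 3.70 ± 0.73.

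The list median within animals was -2.94, -3.66, -3.52 and -0.37 in yaks 1 to 4. Leaving out yak 4 at day +240 gave 41 lower genes and a median of -3.28. Leaving out yak 2 or yak 3 at all days, by contrast, left 9 and 5 lower genes, with medians of -2.37 and -2.28. With brightness as a covariate 20 genes were lower at a median of -2.03, and after quantile normalization the count was 36. Several of these probes were near background at day +240: DLGAP5 was well above it on 2 of 4 arrays, CCNA2 on 2 and ASPM on 1, so that the size of their fall is uncertain. In bulk tissue, fewer cells of a type and less RNA per cell cannot be told apart.

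DNA replication showed 24 of 37 tested genes lower, out of 40 listed, with a median of -0.94. CDC6, which loads the replicative helicase, was not well above background on any day +240 array and at least 9.42-fold lower (adjusted p = 0.000229). ORC1, of the origin recognition complex, read -2.58, -3.19, -2.20 and -2.70 in yaks 1 to 4 at day -30, and -6.60, -7.77, -8.50 and -6.49 at day +240. No values overlapped, the difference was -4.67 ± 0.66 (adjusted p = 7.40e-05), and it passed on the 8 arrays alone as well. The day +240 values of ORC1 lay near those of CDC6, which ran from -8.28 to -5.96, so the size of its fall is uncertain. UHRF1, which copies DNA methylation to the new strand, differed by -3.27 ± 0.53 (adjusted p = 0.000261) and GINS2, of the replicative helicase, by -2.92 ± 0.47 (adjusted p = 0.000242). Both passed without any one animal. RRM2, the regulated subunit of ribonucleotide reductase, read -3.54, -5.99, -4.96 and -1.13 at day +240, where yak 4 was the highest (difference -3.64 ± 0.80, adjusted p = 0.00427). MCM3, MCM4, MCM6 and MCM7 of the helicase ring fell by 1.88, 1.32, 2.01 and 1.22, while the clamp gene PCNA fell by 0.77. MIS18A, which licenses centromere assembly and stands outside these lists, was on no day +240 array well above background and at least 6.06-fold lower (adjusted p = 2.44e-06). In the replication list 2 rose and 26 fell without yak 1 at day +240, and 12 fell with the brightness covariate.

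In the G1 phase list 4 of 17 genes fell and 1 rose. The falls were 23.5% of the list, beside 7.08% lower over all genes tested, and the rise was 5.88%, below 6.86% higher. CCND1, cyclin D1, read 1.84, 2.24, 2.14 and 2.08 in yaks 1 to 4 at day -30, and 1.86, -0.13, 0.48 and 0.88 at day +240. Yak 1 was at its day -30 level while the other 3 were below theirs, and the difference was -1.30 ± 0.34 (adjusted p = 0.0137). The cyclin E genes CCNE1 and CCNE2 differed by -0.93 ± 0.24 (adjusted p = 0.0105) and -1.40 ± 0.36 (adjusted p = 0.0117), and their kinase CDK2 by -1.16 ± 0.24 (adjusted p = 0.00238). The riser was CDKN1A, for the cell cycle inhibitor p21, at 1.35 ± 0.35 (adjusted p = 0.0136), with yak 4 at -0.82 below the other 3, which read 0.78, 1.12 and 0.75. In the G1 phase list 2 rose and 4 fell without yak 4 at day +240. MKI67 and TOP2A were not analysed here.

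The falls of DNALI1, DUSP9, CHRDL2 and RSPO1 were among the 5 with the smallest p-values of the named genes, and they were shared by all 4 animals. RSPO1, the secreted amplifier of Wnt signals known from hormone-responsive luminal cells, read 2.49, 2.38, 1.80 and 2.18 in yaks 1 to 4 at day -30, and -3.35, -4.31, -5.76 and -3.05 at day +240. No animal overlapped, and the difference was -6.33 ± 0.71 (adjusted p = 2.44e-06), with a highest adjusted p of 0.000763 when any one animal was left out. DNALI1, an inner-arm dynein light chain of cilia, read 0.14, 1.19, 0.25 and -0.35 in yaks 1 to 4 at day -30, and -4.32, -4.27, -4.19 and -4.05 at day +240. Its 4 day +240 values lay close together, and the difference was -4.51 ± 0.33 (adjusted p = 3.54e-10). The probes of the 2 genes both lie on chromosome 3 of the cattle assembly UMD 3.1, at chr3:108874810-108874869 and chr3:108918186-108920147. CHRDL2, a secreted antagonist of bone morphogenetic proteins, read 1.08, -0.31, 1.09 and -0.10 in yaks 1 to 4 at day -30, and -4.79, -4.30, -4.63 and -3.06 at day +240 (difference -4.63 ± 0.49, adjusted p = 1.31e-06). DUSP9, a phosphatase of MAP kinases, was well above background at day -30 in all 4 animals and at day +240 in none, and was at least 29.7-fold lower (adjusted p = 1.83e-08).

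The probes of DNALI1 and CHRDL2 are shown because both falls passed without any one animal and because each probe joins separate blocks of the genome, as a spliced RNA does. Each is 60 bases long, the DNALI1 probe spans 1962 bases at chr3:108918186-108920147 and the CHRDL2 probe 985 bases at chr15:54794191-54795175 on UMD 3.1, and both are given 5′ to 3′ as the files list them.
DNALI1: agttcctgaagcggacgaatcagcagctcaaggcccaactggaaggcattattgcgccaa
CHRDL2: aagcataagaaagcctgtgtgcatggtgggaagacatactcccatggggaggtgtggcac

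Other large falls were less even among animals. GDF10, a bone morphogenetic protein family member, read -1.61, -4.05, -4.24 and -3.71 at day +240 and 0.71, 0.48, 0.74 and 0.11 at day -30 (difference -3.91 ± 0.74, adjusted p = 0.00121). Yak 1 fell least. GPC4, a heparan sulphate proteoglycan of the cell surface, fell by 3.37 ± 0.51 (adjusted p = 0.000144) and passed without any one animal. RNASE3, a ribonuclease of host defence whose family has near copies in cattle, read 3.78, 2.43, 1.79 and 2.89 in yaks 1 to 4 at day -30, and -8.28, -2.68, -1.57 and 2.47 at day +240. It spread over more than 10 log2 units at day +240, yak 4 was within the day -30 range, and the difference of -5.24 ± 1.68 (adjusted p = 0.0364) did not pass without yak 1 at day +240 (log2 difference -3.27, adjusted p = 0.13). SERPINA11 (-4.02 ± 1.00, adjusted p = 0.00995) and PNMT, the enzyme that makes adrenaline (-3.75 ± 0.89, adjusted p = 0.00713), fell over the group, with day +240 values of 0.34 and 1.75 in yak 2 close to its day -30 values of 0.78 and 1.78. GALNT13, another O-glycosylation transferase, was on no day +240 array well above background and at least 3.06-fold lower (adjusted p = 0.00212).

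Among 35 Wnt pathway genes 7 fell and 2 rose. Beside RSPO1 the ligands WNT2 (-2.45 ± 0.71, adjusted p = 0.0226), WNT6 (-2.08 ± 0.48, adjusted p = 0.0058) and WNT3 (-0.77), the receptor FZD2 (-1.59), the feedback target AXIN2 (-1.51) and the inhibitor WIF1 (-1.87 ± 0.62, adjusted p = 0.0413) fell. The risers were DKK2, a secreted modulator of the pathway (2.26 ± 0.71, adjusted p = 0.033), and the receptor FZD4 (1.13). WIF1 varied widely at day -30, from -2.85 in yak 3 to 1.73 in yak 2, and its groups overlapped. The count without yak 2 or without yak 3 at all days was 1 lower gene each, RSPO1. In the Wnt list 1 rose and 9 fell without yak 1 at day +240, and 1 rose and 8 fell without yak 4 at day +240. Of the Wnt genes 6 fell with the brightness covariate (limma: none rose, 5 higher at an unadjusted p under 0.05), 2 rose and 4 fell after quantile normalization, and 1 rose and 5 fell with normexp.

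Few hormone receptor genes passed. Of 13 steroid hormone receptor genes and targets 2 fell. GREB1, an oestrogen-induced gene, read -4.88, -5.25, -5.29 and -5.38 in yaks 1 to 4 at day -30, and -7.19, -7.09, -7.08 and -6.70 at day +240. It was on no day +240 array well above background, it passed without any one animal, and it was at least 1.79-fold lower (adjusted p = 7.40e-05). ESR2, oestrogen receptor beta, was on 1 of 4 day +240 arrays above background (difference -1.20 ± 0.34, adjusted p = 0.0208). PGR, the progesterone receptor, read -2.07, -1.92, -1.67 and -2.09 in yaks 1 to 4 at day -30, and -1.57, -1.22, -0.79 and -0.35 at day +240. The groups did not overlap, with day +240 the higher, but the difference of 0.95 ± 0.40 (adjusted p = 0.104) did not pass. ESR1, oestrogen receptor alpha, differed by 0.72 ± 0.44 (adjusted p = 0.27). The list median was 0.44. In the steroid receptor list 5 rose and 1 fell without yak 1 at day +240. Of the steroid receptor genes 3 rose and 1 fell after quantile normalization, and 2 rose and 1 fell with normexp.

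No gene of the 11 in prolactin and growth hormone signalling passed limma's test, 0 had an unadjusted p under 0.05, and an ordinary linear model called 0. In the prolactin signalling list 1 fell with the brightness covariate. PRLR, the prolactin receptor, differed by 0.12 ± 0.44 (adjusted p = 0.874), STAT5A, which carries its signal to the casein genes, by 0.01 ± 0.40 (adjusted p = 0.986), and ELF5, the factor of alveolar fate, by 0.88 ± 0.63 (adjusted p = 0.35). In ELF5 yak 1 read 2.30 and yaks 2 to 4 read 5.24, 5.28 and 5.04 at day +240, against 3.70, 3.67, 3.53 and 3.44 at day -30. Of 12 genes of the insulin-like growth factor axis IGF1 fell (-1.15 ± 0.31, adjusted p = 0.017) and the binding protein IGFBP4 rose (0.86 ± 0.25, adjusted p = 0.0212), but the mean of all IGFBP4 probes was -0.10, so that its probes disagree. Each call was 8.33% of the list, near the shares over all genes tested, 6.86% higher and 7.08% lower. In the growth factor axis list none passed by limma with the brightness covariate (0 higher and 0 lower at an unadjusted p under 0.05), 1 fell after quantile normalization (limma: none rose, 1 higher at an unadjusted p under 0.05), and 1 fell with normexp (limma: none rose, 0 higher at an unadjusted p under 0.05). IGFBP5, which rises in the involuting gland, did not pass at 0.02 ± 0.61 (adjusted p = 0.988) and read 0.03, -2.71, -1.70 and -0.87 in yaks 1 to 4 at day +240.

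Of 26 lysosomal genes 9 rose: the proteases CTSD, CTSB and CTSZ, the cholesterol exporters NPC1 and NPC2, the membrane proteins LAMP1 (0.77) and LAMP2 (0.50), the hydrolase GUSB (0.66) and the channel MCOLN1 (0.71). The list median of 0.22 stood beside 8 negative differences. CTSD, cathepsin D, read 3.36, 2.93, 3.24 and 2.75 in yaks 1 to 4 at day -30, and 4.32, 4.47, 4.68 and 3.84 at day +240. All 4 animals were higher without overlap, the difference was 1.26 ± 0.19 (adjusted p = 0.000119), and the call held without any one animal and with brightness as a covariate (log2 difference 0.92, adjusted p = 0.00155). CTSB, cathepsin B, read 3.20, 2.80, 2.88 and 2.74 in yaks 1 to 4 at day -30, and 4.28, 3.94, 4.13 and 3.64 at day +240, with 1.09 ± 0.20 (adjusted p = 0.000826), but did not pass after quantile normalization (log2 difference 0.47, adjusted p = 0.258). NPC1 and NPC2 differed by 1.38 ± 0.32 (adjusted p = 0.00547) and 1.12 ± 0.30 (adjusted p = 0.015). In the lysosomal list 9 rose and 1 fell without yak 1 at day +240. Of the lysosomal genes 7 rose and 1 fell with the brightness covariate, 3 rose after quantile normalization, and 4 rose with normexp. Of 23 autophagy genes 5 rose, GABARAP (1.11 ± 0.25, adjusted p = 0.00565), GABARAPL1 (1.24 ± 0.37) and GABARAPL2 (0.75 ± 0.22), which coat the forming autophagosome, the cargo receptor SQSTM1 (0.74 ± 0.20) and ATG13 (0.73 ± 0.23), of the starter complex. In the autophagy list 2 fell with the brightness covariate (limma: none rose, 3 higher at an unadjusted p under 0.05), and 1 rose after quantile normalization and with normexp.

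Of 25 genes of involution signalling 2 rose (8.0%) and 1 fell (4.0%), beside 6.86% and 7.08% of all genes tested. CD14, the lipopolysaccharide co-receptor that is secreted into milk and is also a monocyte marker, read -0.13, -0.39, 0.15 and -0.19 in yaks 1 to 4 at day -30, and 0.86, 3.35, 3.76 and 3.53 at day +240. The groups did not overlap, yak 1 was the lowest of day +240, and the difference was 3.02 ± 0.51 (adjusted p = 0.000418), or 3.67 ± 0.47 without yak 1 at that day. DUSP1, a MAP kinase phosphatase of the early stress response, read 2.19, 1.18, 1.42 and 1.62 in yaks 1 to 4 at day -30, and 2.88, 4.31, 4.13 and 3.07 at day +240 (difference 1.99 ± 0.35, adjusted p = 0.000596). FASLG, the death ligand, fell by 1.16 ± 0.29 from low values (adjusted p = 0.0109). STAT3, the transcription factor of early involution, differed by 0.52 ± 0.25 (adjusted p = 0.156) and did not pass. In the involution list 4 rose and 1 fell without yak 1 at day +240, and 2 rose with the brightness covariate and with normexp (limma: none fell, 2 lower at an unadjusted p under 0.05). Of 23 apoptosis genes 1 fell and 1 rose, the survival factor MCL1 (0.64 ± 0.21, adjusted p = 0.0405). Each was 4.35% of the list, below the shares over all genes tested. In the apoptosis list 1 rose and 3 fell without yak 1 at day +240. Of the apoptosis genes 2 rose and 2 fell with the brightness covariate, and 2 fell with normexp (limma: none rose, 2 higher at an unadjusted p under 0.05). Among 22 immediate early genes KLF6 (1.48 ± 0.41, adjusted p = 0.0189), DUSP2 (1.65 ± 0.39, adjusted p = 0.00748), JUND (1.18) and IER2 (0.83) rose beside DUSP1, while MYC (-1.25 ± 0.27, adjusted p = 0.00383) and EGR3 (-1.43 ± 0.32, adjusted p = 0.00487) fell. MYC, which drives growth and division, read 2.57, 2.26, 2.12 and 2.35 in yaks 1 to 4 at day -30, and 1.23, 0.51, 1.60 and 0.94 at day +240, without overlap. In the immediate early list 5 rose and 1 fell with normexp.

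Mucosal defence gave 3 rises among 12 genes, LPO, CD14 and CCL28, the chemokine that draws IgA plasma cells to the gland. Lists share members, so their counts are not separate findings. LPO is also counted among the milk proteins, CD14 in the involution and macrophage lists, and CLDN5 in the tight junction and endothelial lists. CCL28 read 0.12, -0.21, -0.29 and 0.58 in yaks 1 to 4 at day -30, and 0.44, 1.18, 1.92 and 2.60 at day +240, and yak 1 overlapped day -30 (difference 1.48 ± 0.36, adjusted p = 0.00873). In the mucosal defence list 7 rose without yak 1 at day +240, and 1 rose with the brightness covariate. Of 17 tight junction and adhesion genes 3 rose, among them CLDN5 (1.52 ± 0.30, adjusted p = 0.00174) and F11R (0.63 ± 0.19, adjusted p = 0.0305). In the tight junction list 5 rose and 1 fell without yak 1 at day +240. Of the tight junction genes 1 rose and 1 fell with the brightness covariate, and 1 rose with normexp. Interferon response genes had 3 falls among 28, GBP4 (-1.23 ± 0.42), DDX58 (-0.78 ± 0.26) and IRF9 (-0.63 ± 0.21). The list median was -0.15, -1.64, -0.54 and -0.15 in yaks 1 to 4, so yak 2 was the lowest, and over the group it was -0.65, or 0.01 with the brightness covariate. In the interferon list 2 rose and 6 fell without yak 1 at day +240, and 8 fell without yak 4 at day +240. Of the interferon genes none passed by limma with the brightness covariate (1 higher and 0 lower at an unadjusted p under 0.05), and 1 fell after quantile normalization. Of 16 genes of MHC class II the transactivator CIITA fell (-1.13 ± 0.36, adjusted p = 0.0332) and LGMN, an antigen-processing protease also active in lysosomes, rose (0.89 ± 0.25, adjusted p = 0.0183). The difference was negative for 14 of the 16, with a list median of -0.46. Each call was 6.25% of the list, beside 6.86% higher and 7.08% lower over all genes tested. In the MHC class II list 1 rose and 3 fell without yak 1 at day +240 and without yak 4 at day +240, and 1 fell with normexp (limma: none rose, 1 higher at an unadjusted p under 0.05).

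Of 23 collagens and matrix genes 1 fell, TNC, the tenascin of remodelling stroma, which read -0.56, -1.11, -0.11 and -1.01 in yaks 1 to 4 at day -30, and -1.26, -3.95, -3.97 and -2.00 at day +240 (difference -2.10 ± 0.68, adjusted p = 0.0384). The list median split the animals at -0.04, -1.05, -1.91 and 0.85 in yaks 1 to 4. Of 22 matrix proteases and inhibitors TIMP2, an inhibitor of gelatinases, rose (1.03 ± 0.25, adjusted p = 0.0086). The TNC call was 4.35% of its list, below 7.08% lower over all genes tested. The TIMP2 call was 4.55% of its list, below 6.86% higher over all genes tested. In the collagen list 2 fell without yak 1 at day +240, and 4 fell without yak 4 at day +240. Of the collagen genes 2 rose with the brightness covariate (limma: none fell, 0 lower at an unadjusted p under 0.05; list median 0.19), and none passed by limma after quantile normalization and with normexp (0 higher and 10 lower at an unadjusted p under 0.05). In the matrix protease list 4 rose and 2 fell with the brightness covariate (list median 0.59).

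Markers of the gland's cell types were measured beside these lists. The luminal list had a median level of 2.31 to 2.69 across day -30 arrays and 2.51 to 3.28 across day +240 arrays on the log2 scale, and 1 of 14 genes rose, KRT19, a luminal keratin (1.54 ± 0.37, adjusted p = 0.00778). That is 7.14% of the list, beside 6.86% higher over all genes tested. In the luminal list 2 rose without yak 1 at day +240. Of the luminal genes 1 rose and 1 fell with the brightness covariate, none passed by limma after quantile normalization (2 higher and 0 lower at an unadjusted p under 0.05), and none passed by limma with normexp (2 higher and 0 lower at an unadjusted p under 0.05; list median -0.10). Of 13 myoepithelial and smooth muscle markers 4 rose on the deposited scale, LMOD1 (1.46 ± 0.38, adjusted p = 0.0136), MYH11 (1.25 ± 0.30, adjusted p = 0.00715), MYLK (1.10 ± 0.32, adjusted p = 0.024) and ACTA2 (0.82 ± 0.28, adjusted p = 0.0477, below 0 after quantile normalization), though the list median of 0.69 was -0.06 after quantile normalization and that of the luminal list, 0.44, was -0.08. In the myoepithelial list 2 rose without yak 4 at day +240, and 1 rose with the brightness covariate, after quantile normalization and with normexp. Of 15 endothelial markers 5 rose, CLDN5, VWF (1.23 ± 0.30, adjusted p = 0.00906), EGFL7 (1.08 ± 0.30, adjusted p = 0.0192), TEK (0.99 ± 0.27, adjusted p = 0.015) and PECAM1 (0.85 ± 0.22, adjusted p = 0.0131). All 15 differences were positive, and the median was 0.53 on the deposited scale, 0.48 after quantile normalization and 0.59 with brightness as a covariate. In the endothelial list 1 rose with the brightness covariate, 3 rose after quantile normalization, and 2 rose with normexp. Of 11 adipocyte markers 1 rose (9.09%, beside 6.86% of all genes tested), CFD, the complement protease adipsin. It read 2.56, 2.02, 2.22 and 2.11 in yaks 1 to 4 at day -30, and 3.45, 3.77, 3.42 and 3.33 at day +240. No values overlapped in CFD, and the difference of 1.27 ± 0.23 (adjusted p = 0.000721) held without any one animal. In the adipocyte list 3 rose without yak 1 at day +240, and 1 rose with the brightness covariate (list median -0.11).

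Leukocyte and stromal markers gave few calls. The T and NK cell list had 1 fall of 22, IL2RB (-1.47 ± 0.34, adjusted p = 0.00567), and medians of 0.46, -1.05, -1.14 and -0.63 in yaks 1 to 4. The B cell list had 1 rise of 13, the macrophage list 1 of 17, CD14, and the neutrophil list 1 fall of 14, PGLYRP1 (-1.95 ± 0.39, adjusted p = 0.00172). The B cell, macrophage and neutrophil calls ran against most of their lists. The fall in the T and NK cell list went with it, as 21 of its 22 differences were negative. All these calls lay near the shares over all genes tested, 6.86% higher and 7.08% lower. Differences were negative for 9 of 13 B cell and 11 of 17 macrophage genes, and positive for 11 of 14 neutrophil genes. The list medians were -0.24, -0.15 and 0.96. In the T and NK cell list 2 fell without yak 1 at day +240, and 1 fell with the brightness covariate (list median 0.25). In the B cell list 2 rose and 1 fell without yak 1 at day +240. Of the B cell genes none passed by limma with the brightness covariate (0 higher and 0 lower at an unadjusted p under 0.05; list median 0.55), and none passed by limma after quantile normalization and with normexp (1 higher and 0 lower at an unadjusted p under 0.05). In the macrophage list 1 rose and 2 fell without yak 1 at day +240, and 2 rose and 2 fell without yak 4 at day +240. Of the macrophage genes 4 rose with the brightness covariate (list median 0.52). In the neutrophil list 3 rose and 1 fell without yak 1 at day +240. Of the neutrophil genes 2 rose and 1 fell after quantile normalization, and 1 rose and 1 fell with normexp. None of 12 fibroblast, 8 erythrocyte, 11 skeletal muscle and 3 keratinocyte markers tested passed limma's test, where 1, 1, 1 and 0 had an unadjusted p under 0.05, and an ordinary linear model called 1 erythrocyte marker lower. In the fibroblast list 1 fell without yak 1 at day +240 and without yak 4 at day +240. Of the fibroblast genes none passed by limma with the brightness covariate (2 higher and 0 lower at an unadjusted p under 0.05; list median 0.44), and 1 fell after quantile normalization and with normexp. In the erythrocyte list 1 fell without yak 4 at day +240, and 1 fell with the brightness covariate. In the skeletal muscle list none passed by limma without yak 4 at day +240 (0 higher and 2 lower at an unadjusted p under 0.05; list median -0.20). Of the skeletal muscle genes none passed by limma with the brightness covariate (0 higher and 0 lower at an unadjusted p under 0.05; list median -0.10), and 1 rose with normexp. In the keratinocyte list 1 fell without yak 1 at day +240. The erythrocyte median ran from -2.41 in yak 2 to 1.47 in yak 3, and the part of blood in any result was not tested. Of 10 nerve and Schwann cell markers 3 fell and 3 rose. The neurofilament genes NEF3 (-3.94 ± 1.19, adjusted p = 0.0279) and NEFL and the neurotrophin receptor NGFR (-2.15 ± 0.62, adjusted p = 0.0226) fell, while PMP22 (1.43 ± 0.40, adjusted p = 0.0204), S100B (1.55 ± 0.43, adjusted p = 0.019) and NEFH (0.51) rose. NEFL was on no day +240 array well above background and at least 3.68-fold lower (adjusted p = 0.00595). In the nerve list 1 fell with the brightness covariate (limma: none rose, 0 higher at an unadjusted p under 0.05).

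The levels at day +240 were set beside the days between. Day +240 differed from day +180, the sampling before it, in 161 genes (0.801%), 145 higher (0.721%) and 16 lower (0.0796%), and shares its 4 arrays with the comparison above. None of the 163 named genes was among them by limma, 7 had an unadjusted p under 0.05, and the lowest adjusted p was 0.136. RSPO1 was 2.21 ± 0.30 (mean ± SD, n = 4) at day -30, 2.50 ± 0.15 at day -15, -2.22 ± 1.06 at day +1 and -4.12 ± 1.22 at day +240. DNALI1 went from 0.71 ± 0.18 at day -15 to -3.97 ± 0.91 at day +1 and was -4.21 ± 0.12 at day +240. RSPO1 was -3.79 ± 0.65 at day +15, so that both had left their late-pregnancy levels by the first days of lactation. KIF20A was -1.89 ± 0.48 at day -30, -3.65 ± 0.64 at day +1, -6.35 ± 0.66 at day +60 and -5.38 ± 1.41 at day +240, a decline spread over more days. LPO peaked at 4.43 ± 0.53 at day +60 and was 2.04 ± 4.15 at day +240, with a wide spread. CTSD was 3.07 ± 0.28 at day -30, 4.30 ± 0.14 at day +60, 4.52 ± 0.27 at day +180 and 4.33 ± 0.36 at day +240, and CD14 was 3.65 ± 0.25 at day +60 and 2.88 ± 1.35 at day +240. These courses are descriptions, and the days between were not tested here.

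**Figure D5:**
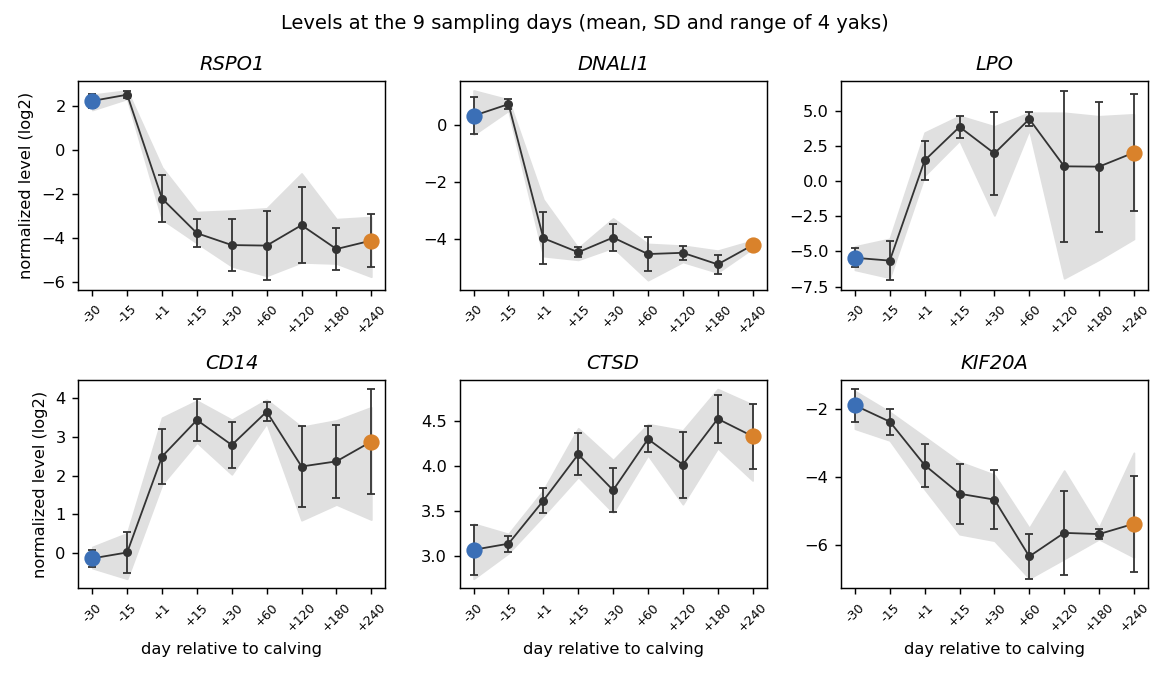
The normalized log2 level of RSPO1, DNALI1, LPO, CD14, CTSD and KIF20A is plotted at the 9 sampling days in order, not to scale in time, as the mean of 4 yaks with its SD (bars) and range (grey), with day -30 in blue and day +240 in orange. RSPO1 and DNALI1 drop between day -15 and day +1, CD14 and LPO rise over the same step, and KIF20A declines until day +60.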

How the data were processed

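RNA of 36 mammary biopsies was hybridised to 36 single-colour arrays. Per the file headers the authors' scanner software was Feature Extraction 10.7.3.1. The deposited scanner files give a processed signal, raw signal and background intensity per spot and quality marks of another unit (0 or 1). The authors deposited a table of log2 values, made in GeneSpring 12 and tested in JMP Genomics 7 per the series' design text, and it holds 34997 of 43653 probes without missing values. Each column equals the log2 signal of 1 scanner file less its 75th percentile to within 0.008, which is how brightness and marks were found. Normalized array data have no counting depth, and precision rests on 4 arrays a day.

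A probe had to be well above background on at least 3 of 4 arrays of at least 1 day, and the probe with the highest mean stood for a gene. Symbols are the files' own, and 11542 of 13385 are also in the yak RefSeq genes of assembly Bosgru_T2T1.0. limma 3.58.1 (R 4.3.3, statmod 1.5.0) was fitted to all 36 columns, with day as factor and animal as random block (consensus correlation 0.0531), so that 1 spread per gene serves all days. Tests are two-sided, with Benjamini-Hochberg adjustment over 20108 genes. Values after ± are standard errors unless said otherwise. Figures used Python 3.11.15, numpy 2.4.6, pandas 2.3.3 and matplotlib 3.10.9. Pairing by animal comes from the labels: deviations from the day mean correlated at 0.105, 0.242, 0.25 and 0.207 between the 2 days in yaks 1 to 4. On simulated data of this comparison with 20108 genes, the fit recovered 41 of 100 genes given a log2 change of 1, 77 of 100 given 2, and called 8 unchanged ones. The simulated noise was independent between genes, with 1 spread per gene for all days and no shift shared by an array's genes. The real spread differs between days and genes of an array move together, so these counts need not hold for the real arrays.

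Named genes were, among called genes with a symbol, the 15 largest rises and falls detected on at least 3 arrays of both days and alike in 4 animals, up to 5 with the largest bound a direction, up to 5 called genes in each of 46 lists, and a set of milk, hormone and division genes whatever their call. Other members are named with their list's count. Some genes that the rule selects are not reported here. The genes and lists were chosen with earlier results of these data known.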

Additional observations from a re-analysis of the deposited data

Results flagged for a closer look

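In 21 of 326 sets of 4 arrays, 1 array of 1 day lay farther from its neighbour than a group of 4 usually spreads, a mark that chance gives in about 1 of 20 sets. The flags were not spread evenly: yak 1 at day +240 was the lowest array for 8 genes. These were ACACA at -3.30 (others 0.09 to 0.57), ACSS1 at -0.26 (others 1.63 to 2.00), BTN1A1 at -2.07 (others 5.15 to 6.10), CD14 at 0.86 (others 3.35 to 3.76), ELF5 at 2.30 (others 5.04 to 5.28), F11R at 2.17 (others 2.79 to 2.89), FABP3 at -0.39 (others 6.03 to 6.59) and LPL at -1.34 (others 4.25 to 4.45). The same array was the highest for TIMP2 at 4.11 (others 3.62 to 3.70). Yak 4 at day +240 was the highest for the mitotic genes ASPM at -3.07 (others -8.19 to -7.48) and KIF20A at -3.29 (others -6.37 to -5.93).

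At day -30 the animals apart were yak 4, with the lowest BUB1 at -1.60 (others -0.82 to -0.78), CCNE1 at -3.94 (others -3.69 to -3.66) and PAEP at 4.59 (others 5.52 to 5.60) and the highest LPL at -0.046 (others -0.19 to -0.18), and yak 1, with the lowest CD36 at 2.26 (others 2.72 to 2.81) and the highest CDH16 at -4.28 (others -6.08 to -5.95) and PSMD9 at 0.96 (others 0.58 to 0.64). Yak 2 had the highest DDX58 at -0.75 (others -1.73 to -1.58) and the lowest LALBA at -0.31 (others 3.08 to 3.68), and yak 3 the highest ESR1 at -5.84 (others -6.23 to -6.17).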

How the results depend on the processing

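The counts of genes higher at day +240 than at day -30 (1380) and of genes lower at day +240 than at day -30 (1423) stayed within 1.5 times under no replicate block (1172 and 1226), the replicate block as a fixed effect (1383 and 1513), an ordinary linear model, no filter on dim probes, detection on all 8 arrays, quantile normalization (1086 and 1087), the mean of all probes (927 and 1539), scanner values of all probes, normexp, and without yak 4 at day +240. They did not with the 8 arrays alone and animal as a block (3 and 39), with the days of the scanner files (0 and 0), with brightness as a covariate for the higher genes (346), without yak 4 at day +120 and +180 for the higher genes (2081), without yak 1 at day +240 (2460 and 2198), or with a log2 difference of at least 1 for the higher genes (658). Leaving out 1 animal gave 36 to 1515 higher and 203 to 1380 lower genes, and the same on the 8 arrays alone 0 to 2284 and 0 to 2187, with 81 lower genes without yak 4, where the 0 came without yak 3, with 2878 genes at an unadjusted p under 0.05. The share of calls that were higher was 49.2%, but 37.6% with the mean of all probes and 18.9% with brightness. Brightness and day go together on these 8 arrays, and it shared 123 of the higher and 526 of the lower genes. The cause of these changes was not tested.

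Among named genes that passed, the log2 difference changed sign with brightness as a covariate for AGPAT1 -0.27, ATF4 -0.0186, ATP5L -0.00606, CD36 -0.22, CSN1S2 -0.36, CSN3 -0.26, NDUFA13 -0.035, NDUFA4 -0.12, SC5DL -0.0475, SEC11C -0.00394, SREBF2 -0.0688 and SRPR -0.16. It changed sign with quantile normalization for ACTA2 -0.0248, ATP5G2 -0.0398, CALR -0.0516 and RPS2 -0.43, with normexp for ATP5G2 -0.0479, CALR -0.0562, PSMA6 -0.13 and RPS2 -0.39, and with the mean of all probes for IGFBP4 (-0.10). With the days of the scanner files it changed sign for ATG13 -0.0016, CA4 -0.0747, CCNB1 0.00222, CDCA3 0.22, CIITA 0.0484, CLDN5 -0.0968, DDX58 0.0149, DNAJC3 -0.0315, EGFL7 -0.13, ESR2 0.55, GINS2 0.16, IGF1 0.11, INSIG2 -0.19, KIF20A 0.22, MCL1 -0.18, NPC1 -0.12, PSMB9 0.019, RNASE3 0.95, RRM2 0.0492, S100B -0.11, SC5DL -0.13, SERPINA11 0.18, TEK -0.0869, TNC 0.31 and VWF -0.12. No sign changed under the other settings, the replicate block included. Of the 144 named genes that passed, calls ended for 15 without the block and for 7 with it as a fixed effect. For genes near background the signal, not the spread, limits the size of a fall: 329 of the lower genes were above background on fewer than 3 day +240 arrays.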

Other observations

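The lists were also followed over the 9 days, as the median level of a list on each array and its mean ± SD over the 4 yaks, with no test. Milk proteins stood at 3.74 ± 0.57 at day -30, 7.46 ± 0.19 at day +15, 7.64 ± 0.38 at day +60, 4.91 ± 3.86 at day +180 and 6.75 ± 1.72 at day +240. The lowest array median at day +180 was -0.83. Cell division genes read -1.09 ± 0.43, -2.35 ± 0.32, -4.18 ± 0.49 and -3.62 ± 1.25 at days -30, +1, +60 and +240. Interferon response genes stood at 0.00 ± 0.22, -1.06 ± 0.11 and -0.49 ± 0.37 at days -30, +60 and +240, lowest at day +60 of these 3. Adipocyte markers ranged at day +180 from -0.22 to 2.63 and at day +240 from -1.37 to -0.14.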
